A study of Mus musculus with 6 samples.

Results

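The genes examined here encode the surface proteins by which long-term haematopoietic stem cells are recognised and sorted in the mouse. There were 10 of them, taken from a set of 21631 protein-coding genes: Kit, Ly6a, Cd34 and Flt3, whose products were used in the sort of this study, and Slamf1, Cd48, Procr, Thy1, Cd27 and Esam, whose products serve in related stem-cell gates. Open chromatin was measured by ATAC-seq, a method that uses a transposase to cut and tag DNA that is not packed away, in 3 aged and 3 young samples of C57BL/6 bone marrow. In all 6 samples the cells lacked lineage markers, Flk2 and Cd34, carried Kit and Sca1, and had spent a night at 3% oxygen in buffered salt solution with serum before the assay, so no group without that culture step was compared. The sample titles give exp 2, 5 and 3 to replicates 1, 2 and 3 of both ages without saying what it stands for. The labels give no age in weeks and no sex, and they do not say whether samples of one age came from separate animals. Each p-value therefore rests on differences among these samples that could be technical only. Each sample has its own list of accessible peaks on mm10, and the sources used here give no read depth.

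Haematopoietic stem cells are rare marrow cells that renew themselves and give rise to all blood lineages. Kit is the receptor for stem cell factor, and Ly6a encodes Sca1, a small lipid-anchored protein. Both are present on mouse stem cells. Cd34 is a sialomucin and Flt3 (Flk2) a receptor tyrosine kinase; both appear on multipotent progenitors as long-term repopulating activity is lost, so adult mouse long-term stem cells are sorted as negative for them. Among the related gates, Slamf1 (CD150), Procr (the endothelial protein C receptor), Esam (an adhesion molecule of endothelial cells and platelets) and Cd27 (a TNF receptor family member) are positive markers, Thy1 is present at a low level, and Cd48, the SLAM family member next to Slamf1, is absent. Accessibility of a gene is not the same as its protein on the surface, and only the former was measured.

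A gene's locus was its body with 25 kb on each side. Overlapping peaks of the 6 lists (1 bp or more) formed 1 region, and the region counted as called in each list with a peak in it. The 10 loci held 303 regions of the 882758 in the genome. The strength of a peak is given as its percentile, the rank of its −log10 p among all peaks of the same list, with 0 for no peak. The lists held between 110596 and 263956 distinct peaks. They were not equally complete: where all other lists had a region, young replicate 2 had it in 62.3% of cases and aged replicate 3 in 75.6%, and each of the other 4 lists, said here to have high rates of calling, in 97.4% or more. In the 10 loci, the lists with the fewest regions were aged replicate 3 with 55 and young replicate 3 with 66.

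The labelled cell type was checked on the starts of genes fixed as markers. Of 8 stem-cell genes, 6 were called in every list (Meis1, Hlf, Mecom, Fgd5, Gata2 and Tal1), Erg was called in 5 and Hoxa9 in 2. Of the markers of B cells (5 genes), T cells (5), myeloid cells (6), erythroid cells (5) and endothelial cells (5), 0 were called in every list, and Elane and Hbb-bt were called in no list. Of 5 megakaryocyte genes, Pf4, Gp9 and Itga2b were called in every list, with Itga2b at 99.3, 97.7 and 97.5 in the aged lists and at 97.0, 66.0 and 94.6 in the young lists, so that every aged value was the higher. Gp1bb went the other way, with calls in 0 aged and 3 young lists (42.1, 22.3 and 43.9). Promoters with every aged value the higher made up 1.89% of all genes tested. The reverse, to which Gp1bb belongs, made up 1.55%, so neither gene is read here as an effect of age. The part of these markers in the results below was not tested. Across all genes tested, 34.5% had their promoter window called in every list.

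The promoters of Kit, positive in the sort, and of Cd34 and Flt3, negative in it, were called in most lists. Ly6a, also positive, reached this only with both of its gene ends counted together. Such calls are common, since 49.9% of all genes were called in at least 5 lists. The share called in at least 4 was not computed. The promoter window was 1 kb on each side of the gene start (for Kit, of 2 annotated starts 4 bp apart), or of both gene ends for Ly6a, Thy1 and Esam, which the promoter table used here does not list. Kit, positive in the sort, was called in all 6 lists. Cd34, negative in the sort, was called in 5, and Flt3, also negative, in 4. Ly6a, positive in the sort, was called in 4 lists at one end or the other, at percentiles between 7.78 and 63.5. Which end is its start is not given in the promoter table, and neither end alone was called in most lists. Slamf1, the positive SLAM marker, had no call in any list, which was the case for 15.6% of all genes. Of the 10 genes, 2 (Kit and Thy1) were called in every list, and Thy1 reached this only because different regions at its ends were called in different lists; the background is the 34.5% given above, or 35.3% for genes with a start in the promoter table and 31.1% for genes read at both ends. Without aged replicate 3 there were 4 such genes, with Cd34 and Esam added, against 39.3% of all genes. In the 4 lists with high rates of calling, 6 of the 10 had a promoter call (Kit, Ly6a, Cd34, Flt3, Thy1 and Esam), against 53.8% of all genes.

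**Figure D1:**
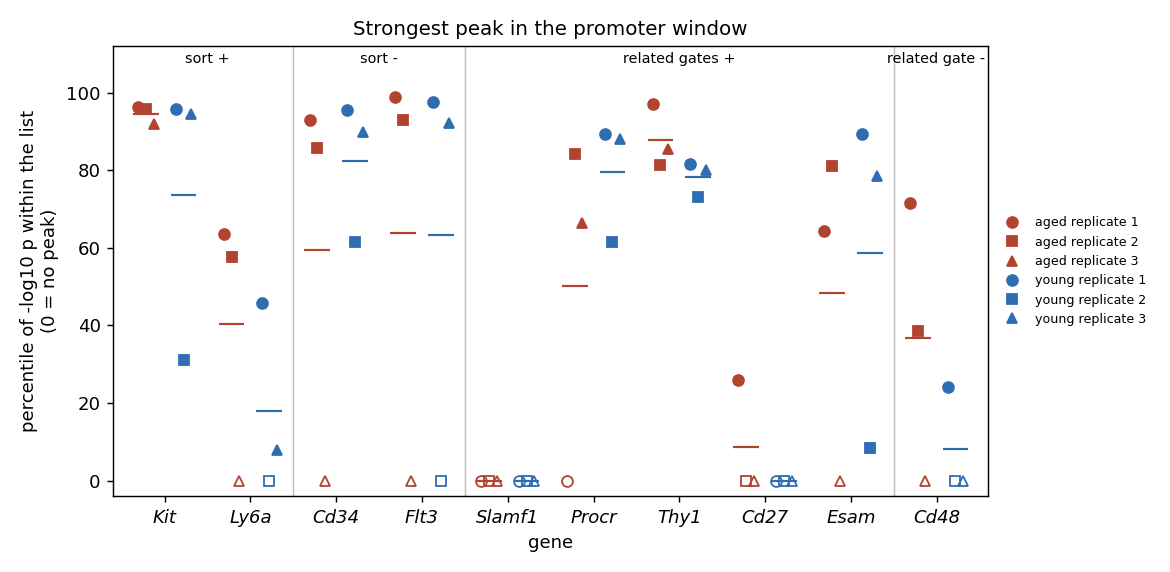
Percentile of the strongest peak in the promoter window (y axis) for each gene (x axis), with 1 point per list, aged in red and young in blue; open symbols at 0 are lists without a peak and horizontal bars are group means. Kit, Cd34 and Flt3 sit above 85 in the lists that call them, except in young replicate 2, while Slamf1 lies at 0 throughout.

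Kit had promoter percentiles of 96.2, 95.7 and 91.9 in aged replicates 1 to 3 and of 95.6, 31.0 and 94.5 in young replicates 1 to 3. Over all genes, the median percentile of called promoters was 94.9, 93.1 and 94.0 in the aged lists and 96.0, 73.1 and 92.2 in the young lists, so that Kit lay near that median in every list but young replicate 2, where it was lower. The aged and young values overlapped (exact 2-sided permutation test, p = 0.5, n = 3 each). The value of aged replicate 1 comes from the second of the regions described next. The region at the start measured 687 bp (chromosome 5, 75574622 to 75575308), with the centre 22 bp before the annotated start, and its deposited fold enrichments ran from 2.48 in young replicate 2 to 14.0 in aged replicate 2. A second region of 419 bp, centred 790 bp inside the gene, was called in the 4 lists with high rates of calling and in neither of the other 2.

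The Cd34 promoter ranked at 92.8, 85.6 and 0 (aged) and at 95.5, 61.5 and 89.8 (young). The one list without a call was aged replicate 3 (aged against young, exact permutation p = 0.6). Its region lay across the start of the gene (chromosome 1, 194938602 to 194939049), with the centre 4 bp from it. Flt3 had 98.7, 92.9 and 0 in the aged lists and 97.6, 0 and 92.1 in the young lists, so that 1 list of each age lacked it (exact permutation p = 0.8). Its region (chromosome 5, 147400129 to 147400706) also covers an end of the annotated gene Gm26597, and the peak cannot be assigned to one of them. In aged replicate 1 and young replicate 1, the Flt3 peak ranked above that of Kit, and in the other lists below it.

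Ly6a had 63.5, 57.6 and 0 in the aged lists and 45.8, 0 and 7.78 in the young lists, in any region at either of its ends. These values lay below those of Kit, Cd34 and Flt3 in each of the 4 lists that called all of them. No single region at the ends of Ly6a was called in more than 2 lists. Ly6a belongs to a cluster of similar genes on chromosome 15, and how reads that match several copies were handled is not given in the sources used here.

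Among the related gates, the Procr promoter ranked at 0, 84.2 and 66.5 (aged) and at 89.4, 61.5 and 88.1 (young). The gap was in aged replicate 1, a list with a high rate of calling. Esam had 64.2, 80.9 and 0 in the aged lists and 89.3, 8.54 and 78.4 in the young lists. The region at its lower-coordinate end (chromosome 9, 37527897 to 37528156) was called in 3 young lists but in 1 aged list, and the call of aged replicate 1 lay near the other end. Thy1 had 97.0, 81.3 and 85.3 in the aged lists and 81.6, 73.1 and 80.1 in the young lists, not always at the same place. Against the medians of called promoters given above for Kit, Thy1 was higher in aged replicate 1 only. It equalled the median in young replicate 2 and lay below it in the other lists. Cd27 was called in aged replicate 1 alone, at 25.9. Cd48, the negative marker, had 71.6, 38.4 and 0 in the aged lists and 24.3, 0 and 0 in the young lists. For none of the 10 genes did the aged and young promoter percentiles separate, and the smallest exact permutation p was 0.2, for Thy1. Over all genes tested, 1.89% had every aged list above every young list and 1.55% the reverse. With 3 lists per age this test cannot give a p under 0.1, and after Benjamini-Hochberg adjustment over all genes every p was 1.

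The sequences before the gene start are shown for the 3 genes of the sort that the promoter table holds and for Slamf1, which had no call. They are from RefSeq (GRCm38.p6, which is the assembly behind mm10), and 7 of the 10 genes were matched. Each run gives the 250 bases before the start, 5′ to 3′ on the strand of the gene: Kit at chr5:75574737-75574986 (plus strand), Cd34 at chr1:194938571-194938820 (plus), Flt3 at chr5:147400490-147400739 (minus) and Slamf1 at chr1:171766882-171767131 (plus). The runs of Cd48, Procr and Cd27 reach into the annotated gene and are given by their counts only. Capitals mark matches, on either strand, to short forms of 5 motifs: GATAA for GATA factors, TGTGGT for RUNX factors, AGGAAG for ETS factors, TGANTCA for AP-1 and GGGCGG for the GC box.
Kit: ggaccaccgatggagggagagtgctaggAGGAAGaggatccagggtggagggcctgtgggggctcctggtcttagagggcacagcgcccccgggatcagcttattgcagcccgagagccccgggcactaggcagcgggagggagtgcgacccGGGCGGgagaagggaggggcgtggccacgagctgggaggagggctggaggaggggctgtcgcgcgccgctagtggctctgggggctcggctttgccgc
Cd34: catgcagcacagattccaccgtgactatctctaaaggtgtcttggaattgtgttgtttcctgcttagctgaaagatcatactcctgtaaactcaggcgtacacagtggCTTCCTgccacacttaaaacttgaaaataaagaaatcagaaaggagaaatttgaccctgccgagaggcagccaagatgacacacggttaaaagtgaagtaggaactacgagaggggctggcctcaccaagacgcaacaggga
Flt3: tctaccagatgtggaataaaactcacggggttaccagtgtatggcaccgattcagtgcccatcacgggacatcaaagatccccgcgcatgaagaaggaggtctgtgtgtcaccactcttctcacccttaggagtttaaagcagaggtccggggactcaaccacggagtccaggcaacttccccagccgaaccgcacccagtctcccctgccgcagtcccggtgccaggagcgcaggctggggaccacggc
Slamf1: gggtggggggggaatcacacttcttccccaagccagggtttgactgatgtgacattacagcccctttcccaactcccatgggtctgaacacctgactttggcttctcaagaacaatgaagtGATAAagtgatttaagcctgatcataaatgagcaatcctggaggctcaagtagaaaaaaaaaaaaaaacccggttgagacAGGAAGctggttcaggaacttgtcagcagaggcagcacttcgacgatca

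The Kit run holds 17 CG pairs, more than 68.4% of the 17274 promoters in the table, and is 70.8% G and C. Its promoter was called in 6 lists. Flt3 and Procr, with promoter calls in 4 and 5 lists, hold 13 each, and Cd34, with calls in 5, holds 6. Cd27, Cd48 and Slamf1, with promoter calls in 1, 3 and 0 lists, hold 5, 4 and 3. The order of calls did not follow the CG number throughout, and the relation over these genes was not tested. Across the table, the share of promoters called in every list was 4.41% for those with 0 to 3 CG pairs, 22.0% with 4 to 9, 53.2% with 10 to 19 and 63.9% with 20 or more. The motif matches were few. Kit has 1 match to the ETS and 1 to the GC-box letters, Cd34 has 1 ETS match, Procr has 1 AP-1 match, Slamf1 has 1 GATA and 1 ETS match, and neither Flt3 nor Cd27 has any of the 5. Of all promoters in the table, 21.0% hold the GATA letters, 12.3% the RUNX letters, 28.5% the ETS letters, 6.27% the AP-1 letters and 43.2% the GC-box letters. Cd48 has 1 RUNX match. A match of letters is not a bound site.

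Regions away from gene starts, called distal here, were compared next. A region was distal if it lay more than 1 kb from the starts in the promoter table and from both ends of protein-coding genes that the table does not list, so ends of some non-coding genes remain among them. The density of distal calls was higher for the genes positive in the sort than for those negative in it in some lists, and lower in others. It was 1.19, 1.06 and 0.360 per 10 kb of locus in the aged lists and 1.003, 0.550 and 0.398 in the young lists for Kit and Ly6a, and 0.902, 0.969 and 0.763 (aged) and 1.08, 0.873 and 0.763 (young) for Cd34 and Flt3. The means were 0.760 ± 0.366 and 0.892 ± 0.123 (SD over the 6 lists), and the lists of the 2 pairs of genes overlapped. Both pairs were read in the same lists, so these SDs do not measure the spread of the difference within a list. By age, the means were 0.869 and 0.878 in the aged lists and 0.650 and 0.906 in the young lists. In aged replicates 1 and 2 the genes positive in the sort had the higher density, and in the other lists the lower. With 2 genes on each side no test was made.

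A second measure, chosen after the data were seen, counted the distal regions that at least 4 lists called. For Cd34 and Flt3 these were 9 of 59 (15.3%), of which Flt3 gave 7, and for Kit and Ly6a 3 of 68 (4.41%), against 2.79% over the loci of all genes. Leaving out regions with an annotated gene end within 1 kb, 7 and 2 remained. The order depended on the peak threshold: with peaks of −log10 q of at least 5 alone, the counts were 0 for Cd34 and Flt3 and 1 for Kit and Ly6a. Young replicate 2 has 224 such peaks in all, and the other lists between 6005 and 31725. The 5 positive genes of related gates had 10 of 102 (9.80%) and Cd48 had 1 of 23 (4.35%).

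**Figure D2:**
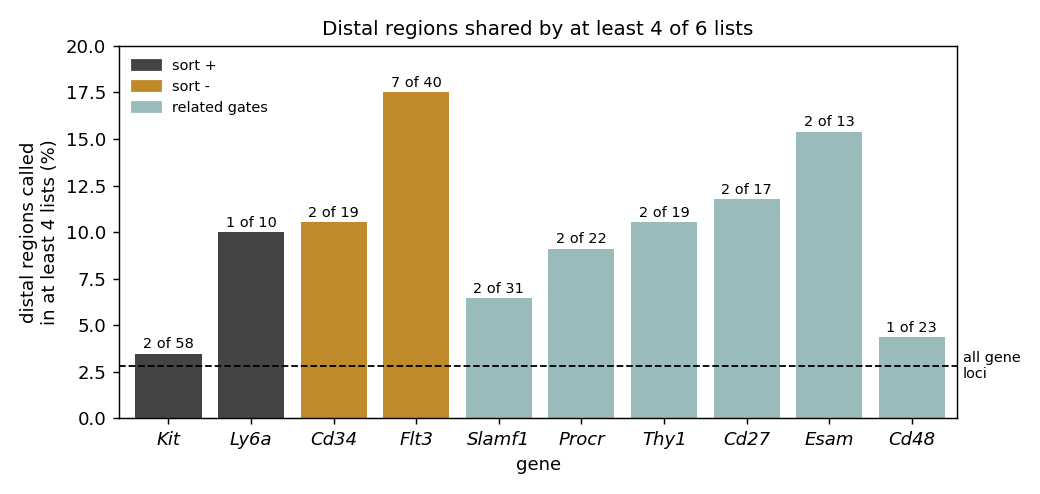
Share of the distal regions of each locus that at least 4 of the 6 lists called (y axis, percent) for each gene (x axis), with the counts above the bars and the share over the loci of all genes as a dashed line. Flt3, at 7 of 40, has the highest share, and Kit, at 2 of 58, the lowest.

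Flt3 carried the longest series of shared regions. The strongest of those inside the gene (chromosome 5, 147366338 to 147366918), 33861 bp downstream of the start, ranked at 89.1, 92.7 and 88.2 (aged) and at 97.7, 0 and 96.6 (young). Only young replicate 2 lacked it. A region 37235 bp downstream and another 59212 bp downstream were also called in every list but young replicate 2. Another lay 18048 bp upstream of the start (chromosome 5, 147418134 to 147418941), near an end of the annotated gene D5Ertd605e, and was missing in aged replicate 3 alone. Of the 7, 4 lay inside Flt3. Of the other 2 below the gene, 1 lay at an end of Urad. Per 100 kb of locus this made 5.85 shared distal regions, and 97.7% of all genes had fewer.

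Cd34 had 2 shared distal regions. One, 10627 bp upstream of the start (chromosome 1, 194927845 to 194928544), ranked at 0, 88.7 and 75.8 (aged) and at 82.2, 88.8 and 86.3 (young). The other, inside the gene 4861 bp downstream of the start (chromosome 1, 194943407 to 194943958), had 87.3, 90.0 and 0 in the aged lists and 96.8, 97.6 and 91.7 in the young lists. Each was called in all 3 young lists and in 2 aged lists, and the aged list without a call was not the same one. A further region beyond the gene, in 5 lists, lay at the start of the annotated gene Gm16897.

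Kit, with the largest locus at 131.7 kb and 61 regions, had 50 of them in 1 list alone (82.0%, against 82.9% over the loci of all genes). Its 2 shared distal regions lay inside the gene. One, 49290 bp downstream of the start (chromosome 5, 75623773 to 75624781), ranked at 93.5, 84.1 and 61.3 (aged) and at 81.3, 0 and 73.6 (young). The other, 7403 bp downstream (chromosome 5, 75581923 to 75582857), was called in 3 aged lists, at 88.8, 90.1 and 29.0, and in 1 young list, at 83.0. Of all regions in gene loci, 4.14% differed by at least 2 lists between the ages. Ly6a had its one shared region outside the gene, 5826 bp below its lower-coordinate end (chromosome 15, 74988295 to 74989051). It ranked at 97.2, 95.4 and 0 in the aged lists and at 97.5, 99.9 and 96.3 in the young lists. In young replicate 2, which called nothing else in the Ly6a locus, it was among the strongest peaks of the list, with a deposited fold enrichment of 6.25. The region overlaps the annotated genes Gm28068 and Gm8000, so its assignment to Ly6a is by distance alone.

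**Figure D3:**
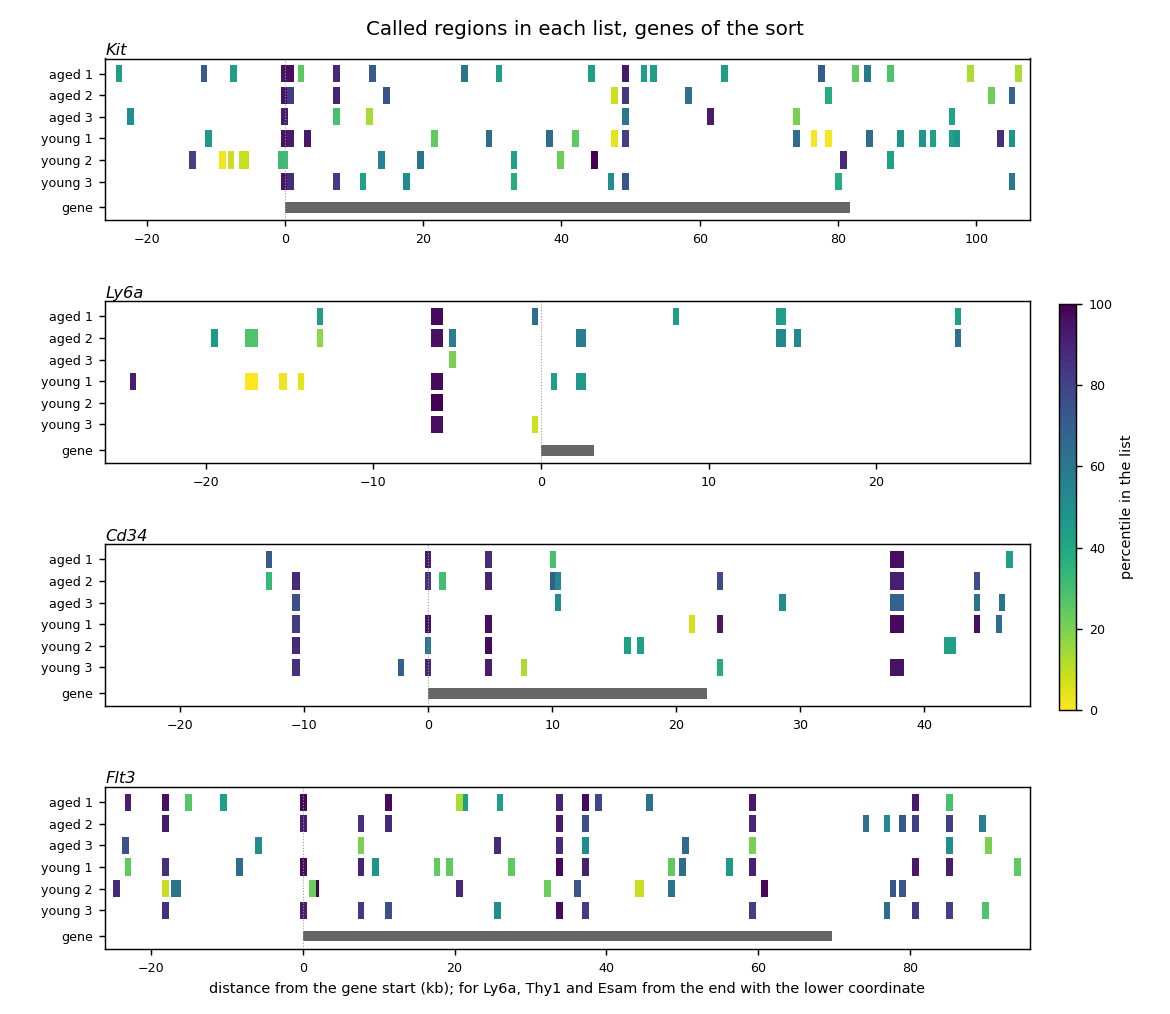
Regions called in each list (rows) across the loci of Kit, Ly6a, Cd34 and Flt3, by distance from the gene start in kb (x axis; from the lower-coordinate end for Ly6a), with darker colour for a higher percentile in the list and the gene body in grey; narrow regions are drawn wider than they are. Columns of dark bars mark shared regions, of which Flt3 has the most and Ly6a has a single one below the gene.

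In the related gates, the region with the highest mean rank among those without an annotated gene end within 1 kb lay upstream of Procr. It was called in all 6 lists and lay 8022 bp before the start (chromosome 2, 155742804 to 155743587), outside the annotated genes used here. Its percentiles were 99.5, 98.9 and 97.6 in the aged lists and 99.6, 61.5 and 96.3 in the young lists. It outranked the Procr promoter in 5 lists and was tied with it in young replicate 2, where many peaks share one value. A neighbouring region 8830 bp before the start was called in 2 lists of each age. Esam had a region in all 6 lists inside the gene, centred 2333 bp from its lower-coordinate end (chromosome 9, 37530023 to 37530821), at 97.7, 93.0 and 65.7 in the aged lists and 90.3, 55.6 and 92.1 in the young lists. In each of the 6 lists it ranked above any peak at the ends of Esam.

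Slamf1, without a promoter call, had 2 shared regions outside the gene. One lay 14652 bp beyond its far end (chromosome 1, 171815836 to 171816103) and had 84.9, 84.1 and 92.8 in the aged lists and 86.5, 0 and 87.2 in the young lists. The other, 5027 bp before the start (chromosome 1, 171761821 to 171762390), ranked at 95.5, 89.9 and 0 in the aged lists and at 5.40, 0 and 45.7 in the young lists. The list of each age with the low rate of calling had no call there. Cd27 had a region 4653 bp before its start in the 4 lists with high rates of calling, at 96.8, 83.1, 94.1 and 82.8, while the strongest region of its locus, in all 6 lists, stood at the start of its neighbour Vamp1. The region of the Thy1 locus that all 6 lists called lay at an end of the annotated genes Usp2 and Gm39325. Inside Thy1, near its higher-coordinate end, a region of 674 bp was called in the 4 lists with high rates of calling. Cd48 had 1 shared distal region, inside the gene, in 3 aged lists at 90.1, 78.0 and 12.1 and in 1 young list at 92.1. Young replicate 3 called no region in the Cd48 locus, where the other lists called between 4 and 12.

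**Figure D4:**
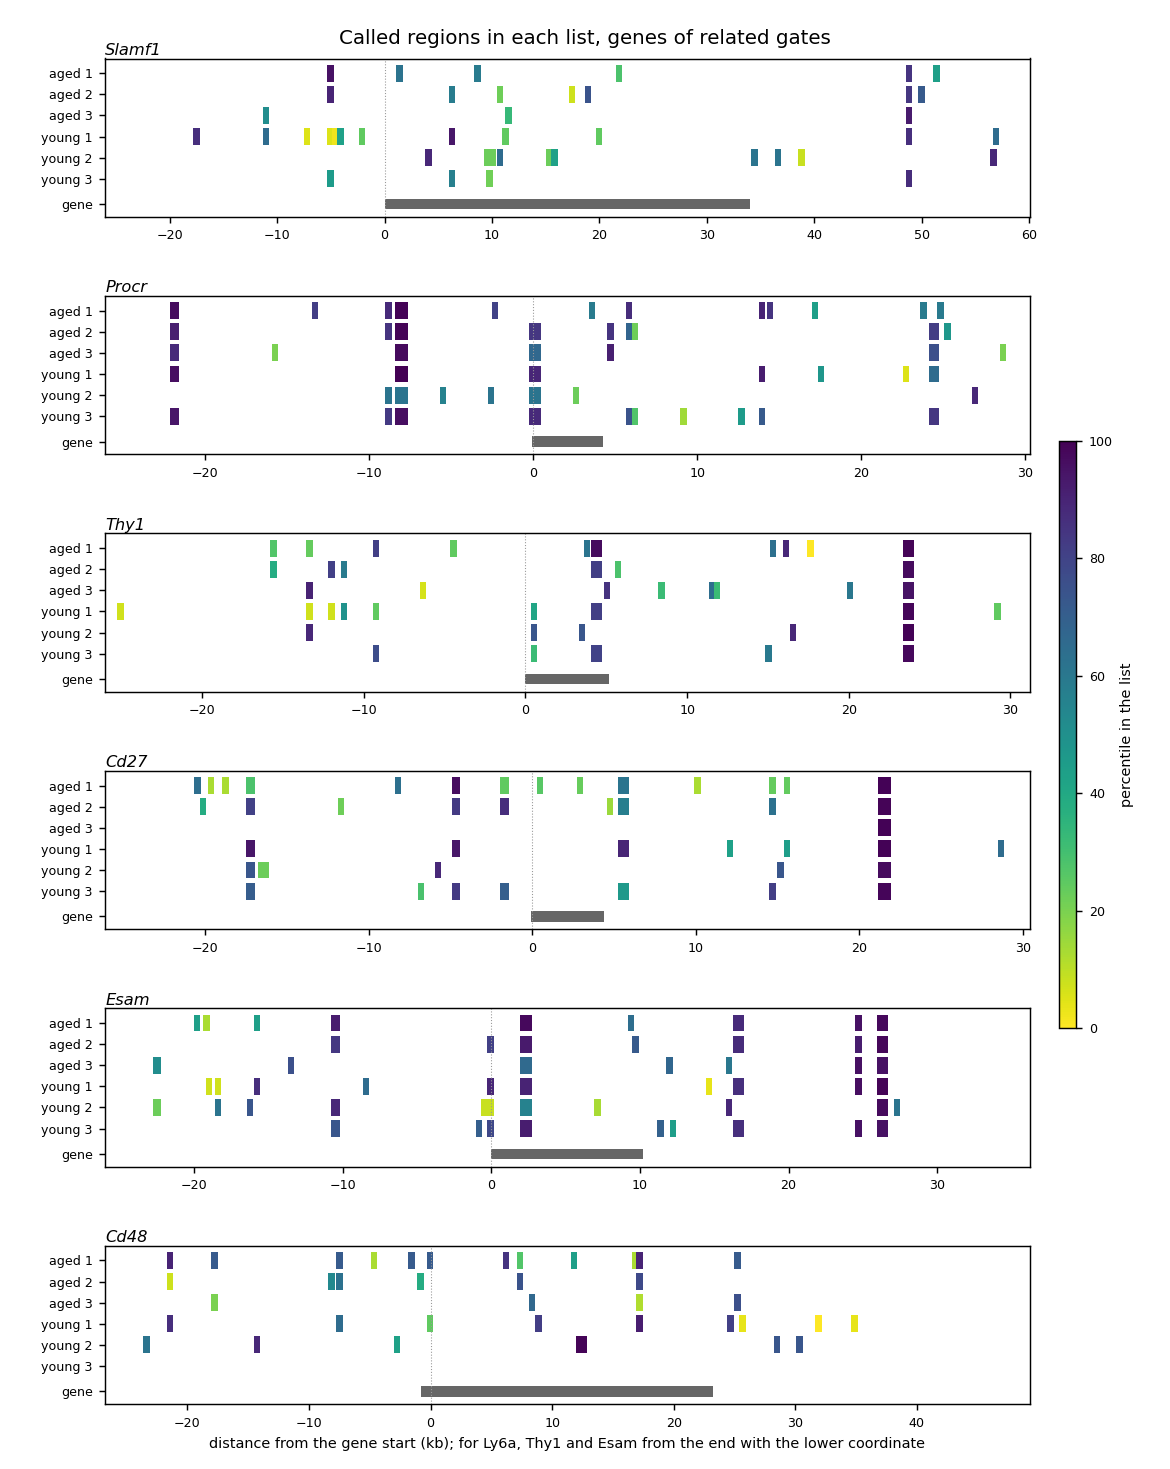
Regions called in each list (rows) across the loci of the 6 genes of related gates, by distance from the gene start in kb (x axis; from the lower-coordinate end for Thy1 and Esam), coloured by percentile in the list, with the gene body in grey; narrow regions are drawn wider than they are. The dark column before Procr at 8022 bp spans all 6 lists, and the Slamf1 start is empty.

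Of the 303 regions in the 10 loci, 6 were called in every list (1.98%, against 1.61% of the regions in the loci of all genes). They were the Kit promoter, the region before Procr, the region inside Esam, and 3 at ends of neighbours (Usp2, Vamp1 and Gm46107). The count was 11 without aged replicate 3 (background 2.29%) and 15 without young replicate 2 (background 3.21%), where 5 lists are asked for. At least 4 lists called 38 regions (12.5%, against 4.8% over the loci of all genes), and the 4 lists with high rates of calling shared 28, against a background of 4.09%. Regions at gene starts were more common in the 10 loci, where 252 of 303 regions were distal, against 513816 of 550649 over all loci. Among distal regions alone, 23 of the 252 (9.13%) were called in at least 4 lists, against 2.79%. In 1 list alone were 70.6% of the regions, against 82.9% over the loci of all genes.

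Age was compared within each locus. The number of called regions did not separate the ages in any of the 10 loci. Kit had 21, 10 and 8 called regions in the aged lists and 21, 14 and 10 in the young lists (13 ± 7 and 15 ± 5.57, SD, n = 3 each, exact permutation p = 0.8). The young counts lay within the range of the aged counts. Flt3 had 16, 13 and 10 against 18, 15 and 12 (exact permutation p = 0.5). Cd34 had 6, 10 and 6 against 8, 7 and 7, with the same mean of 7.33 at both ages (exact permutation p = 1). Ly6a had 6, 9 and 1 against 7, 1 and 2 (exact permutation p = 0.7). Esam had the smallest p, at 9, 7 and 7 against 10, 11 and 9 (7.67 ± 1.15 and 10 ± 1, SD, n = 3 each, exact permutation p = 0.2). The other genes had p-values of 0.3 to 0.7, with Slamf1 at 6, 7 and 3 against 12, 10 and 4 and Cd48 at 12, 6 and 4 against 9, 6 and 0. Procr had 12, 9 and 7 against 7, 7 and 10, Thy1 had 10, 6 and 8 against 9, 5 and 5, and Cd27 had 14, 9 and 1 against 7, 6 and 7. After Benjamini-Hochberg adjustment over all genes every p was 1. In the set of all genes, 0.356% had every aged list above every young list and 1.73% the reverse.

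**Figure D5:**
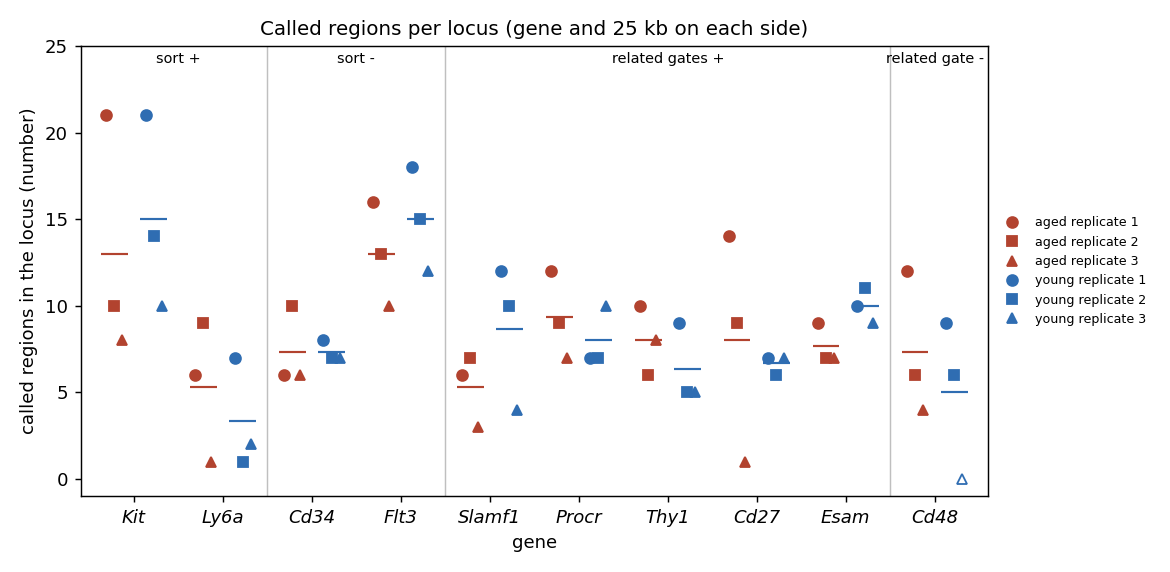
Number of called regions in each locus (y axis) for each gene (x axis), with 1 point per list, aged in red and young in blue, and bars at the group means. The aged and young points overlap for all 10 genes.

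Of the 303 regions, 0 were called in 3 aged lists and no young list, against 0.0558% of the regions in the loci of all genes. The reverse held for 1, against 0.0708%, and for 0 with peaks of q at most 0.05 alone. It lay inside Thy1, 530 bp from the lower-coordinate end at its centre (chromosome 9, 44043752 to 44044077), at percentiles of 41.1, 73.1 and 31.8 in the young lists. The ranks in young replicates 1 and 3 lay in the lower part of those lists, and the peak reached a q of 0.05 in 2 of the 3 lists. With a list left out the rule is looser, since 2 lists of that age have to call the region or to lack it, and the share over the loci of all genes is larger. Regions called in the aged alone numbered 7 of 283 without aged replicate 3, 3 of 251 without aged replicate 1 and 2 of 285 without aged replicate 2, against 0.954%, 0.392% and 0.65% of the regions in the loci of all genes. Regions called in the young alone numbered 3 of 290 without young replicate 3, 2 of 256 without young replicate 1 and 2 of 285 without aged replicate 2, against 1.22%, 0.543% and 0.194%.

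Related genes fixed as lists were read at their promoter windows. Over all genes, 34.5% were called there in every list and 15.6% in none. Of 7 ligands and kin of the receptors, Flt3l, the ligand of Flt3, was called in every list, and Kitl, the ligand of Kit, in 5. Of the 7 other SLAM family genes, 0 were called in every list and 0 in none, with each in 3 or 4 lists. Of 7 other Ly6 genes, Ly6e alone was called in every list, and 4 (Ly6c1, Ly6c2, Ly6i and Ly6k) were called in 1. The share of all genes called in 1 list was not computed. Of 16 other surface genes used to enrich or divide stem cells, 8 were called in every list (Cd9, Itga2b, Itgb3, Cd82, Alcam, Bst2, Cxcr4 and Spn), and 14 in at least 5, against 49.9% of all genes. Of 9 lineage markers that a lineage depletion removes, 0 were called in every list and Cd5 was called in 5. In the progenitor gate of 5 genes, Csf2ra was called in every list. The median of the mean percentile was 82.9 for the other surface genes, 39.0 for the SLAM genes, 12.2 for the Ly6 genes and 20.9 for the lineage markers, and 57.1 over all genes.

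The genes whose promoter percentiles over the 6 lists lay nearest to those of the sort genes, by Euclidean distance, were Crim1 (2.26) and Ier3 (3.43) for Kit, Camkk2 (2.36) and Hpcal4 (2.97) for Cd34, Nhsl1 (1.56) and Pus7 (1.57) for Flt3, and Cibar2 (10.3) and Myrfl (20.4) for Ly6a.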

How the data were processed

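ATAC-seq peak lists of 3 aged and 3 young samples were used as deposited, 1 list per sample. Bowtie2, SAMtools, Picard and MACS2 are named for build mm10, per the submitters' processing notes; versions, settings and read depth are not given in the sources used here. In the deposited lists the fold enrichment is a ratio, and significance is given as −log10 p and −log10 q. The score column of the deposited lists was not used for any value. The weakest deposited peak had a p of 0.00999.

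Peaks on chromosomes 1 to 19 and X with the same interval were counted once, and regions were built and ranked as described above with Python 3 scripts (numpy, pandas). Coordinates are 1-based; gene models and starts are from RefSeq on GRCm38.p6. Differences between ages were tested for all 21631 protein-coding genes by an exact 2-sided permutation test over lists, with Benjamini-Hochberg adjustment. The code was tested on simulated peaks. The replicate numbers were not treated as pairs.

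The 10 genes, the related lists and the markers were chosen with earlier results of these data known. The count of distal regions in at least 4 lists, the set of 4 lists, the 5 motifs (1 set tried), the CG classes and the check of gene ends were chosen after the data or sequences were seen. Named related genes are those with promoter calls in every list, in none, or in 3 lists of one age and 0 of the other, and for each sort gene the 2 nearest by percentile; Kitl, Erg, Hoxa9, Cd5, Ly6c1, Ly6c2, Ly6i and Ly6k were named after their values were seen. Alternatives were the peak threshold, list length, overlap, locus and promoter size, fixed windows, scaling to 100000 peaks, and leaving out each list.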

Additional observations from a re-analysis of the deposited data

How the results depend on the processing

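With 3 lists against 3, or with a list left out, the permutation test cannot give a p under 0.1. The absence of lower values in the alternatives is therefore no sign of robustness. The smallest exact permutation p over the alternatives was 0.1 in both measures, and several genes reached it, Cd27 and Slamf1 in region counts among them. The sign of the difference between ages turned in 18 of 135 values for region counts (9 genes) and in 10 of 117 for promoter percentiles (4 genes). This counts only genes with a difference other than 0 and alternatives that recompute it. Differences are aged minus young. With peaks of q at most 0.05, the region difference of Cd27 was -0.67, 1 promoter was called in all lists, and 0 regions were called in the young alone. With −log10 q of at least 5, the region differences were 0.67 for Kit and Slamf1, -0.33 for Ly6a and 1 for Flt3 and Esam, the Esam percentile difference was 0.85, 0 promoters and 0 regions were called in all lists, 0 in the young alone, and shared distal regions numbered 1 (positive) and 0 (negative). With all lists cut to the shortest, 1 gene did not overlap in region counts, the differences were 1.33 for Kit and -0.33 for Cd27, 1 promoter was called in all lists and 0 regions in the young alone. Asking peaks to cover 50% of a region left 1 gene without overlap in each measure, 1 promoter and 3 regions in all lists, 0 regions in the young alone, and 0 (positive) and 5 (negative) shared distal regions. With 10 kb flanks, 1 gene did not overlap, the Procr difference was -0.67, 3 regions were in all lists and 5 shared distal regions lay in the negative loci. With 50 kb flanks, the differences were -0.33 for Ly6a and Procr and -2.33 for Thy1, 10 regions were in all lists and 6 shared distal regions lay in the positive loci. Fixed windows of 500 bp gave 3 regions in all lists. Promoters of 2500 bp gave percentile differences of -32.2 for Flt3 and 6.72 for Esam and 4 promoters in all lists. Per 100000 peaks, the Flt3 region difference was 0.25. For the alternatives in this paragraph, the shares over all genes and over the loci of all genes were not computed. Their counts of genes, promoters and regions therefore have no background and are not read as results about these genes.

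Leaving out each list in turn gave 0 to 2 genes of 10 without overlap in region counts (4.56% to 20.5% of all genes) and 0 to 3 in percentiles (6.36% to 12% of all genes), 2 to 4 promoters and 6 to 15 regions in all lists, 0 to 7 regions in the aged alone and 1 to 3 in the young alone. Region differences ran from -1.67 to 4.83 for Cd27, -0.17 to 4.33 for Cd48 and -6 to 1.33 for Kit, with 1 for Kit without aged replicate 3. Percentile differences ran from -39.5 to 6.97 for Cd34, -35.5 to 13.8 for Esam, -31.0 to 32.6 for Flt3 and -0.50 to 31.8 for Kit. In the 4 lists with high rates of calling, a set chosen after seeing the data, 1 gene of 10 did not overlap in region counts and 4 in percentiles (10.2% and 17.2% of all genes), the region differences of Kit and Cd48 were 0.50 and 4.50, 6 promoters and 28 regions were in all lists, and 7 regions were in the aged alone (1.4% over the loci of all genes). With 2 lists against 2 no p can go below 0.333. The difference in distal density between genes positive and negative in the sort, as a mean over the lists of both ages, was negative in every alternative, from -0.22 to -0.0074 per 10 kb. Single lists differed in sign, since it was positive in aged replicates 1 and 2 with the main settings. The cause of these shifts was not tested. With the replicate block, a sign-flip test of same-numbered lists, the smallest p was 0.25, the lowest possible; the deviations of same-numbered lists from their group means correlated at 0.0158, -0.210 and -0.223 for percentiles and 0.630, -0.410 and 0.364 for region counts over genes. Read depth is unknown, so a missing peak does not show closed chromatin.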
